A study of Mus musculus with 5 samples.

Results

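Cycling cells of mouse small intestinal organoids were examined in 3 single-cell libraries: 20 wells of the Bud library, 33 of the het library and 29 of the WT library, 82 of the 795 wells kept in these libraries and of the 1480 kept in the whole series. Single cells were sorted into the wells, which were not screened for doublets. The cells were selected on their own transcripts: wells with at least 3000 UMIs (unique molecular identifiers, each standing for 1 captured RNA molecule) were kept, and a well was taken as cycling when 8 genes of late cell cycle, Mki67, Top2a, Ccnb1, Cdk1, Birc5, Ube2c, Cenpf and Tpx2, together held at least 0.3% of its UMIs. That percentage is called the score. The genotypes were Lkb1 -/- for Bud, Lkb1 +/- for het, and WT. The mark Bud comes from the title and is not explained in the labels. LKB1, encoded by Stk11 on chromosome 10, is the kinase that activates AMPK and its relatives, and its loss causes gut polyps in people and mice. Organoids, cultures of gut epithelium in gel, were grown in medium with Egf, R-spondin and Noggin in all 3 groups, dissociated with TrypLE and sorted by flow cytometry into 384-well plates. Each group was 1 plate, the labels do not say how the lines were edited, whether a line was 1 clone or whether the lines share an origin, and there were no replicates. No p-value is therefore given, and line, plate and genotype cannot be told apart.

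In the crypts of the small intestine, stem cells and their transit-amplifying daughters divide, while cells that leave the crypt stop dividing and become absorptive enterocytes or secretory goblet, Paneth, enteroendocrine and tuft cells. A dividing cell first licenses its replication origins and makes DNA building blocks in G1 and S phase under E2F factors, and then builds the mitotic kinases, kinesins, kinetochores and spindle in G2 under the MuvB complex with B-MYB and FOXM1. The anaphase-promoting complex destroys many of those proteins at the exit from mitosis. Ki-67, encoded by Mki67, coats mitotic chromosomes, topoisomerase II alpha from Top2a untangles DNA, and cyclin B1 from Ccnb1 with its kinase from Cdk1 drives entry into mitosis. Survivin from Birc5 and CENP-F act at centromeres, TPX2 activates Aurora A on the spindle, and UBE2C is the ubiquitin-conjugating partner of the anaphase-promoting complex.

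The sequences of 5 of the genes that chose the wells and of 1 replication gene are shown by the 120 bases before their start, since many genes of G2 and mitosis are known to share a promoter element, the CHR, while many genes of S phase carry E2F motifs. They were picked because the 120 bases hold such a motif: Birc5 and Cenpf have no CHR in that stretch, and Mcm2, Mcm3, Mcm5, Mcm7, Pcna and Cdc6 have no E2F motif there, while Mcm2 holds a CHR. The sequences are RefSeq's on build GRCm38.p6 and run 5′ to 3′ on the strand of the gene. Capitals mark 3 motifs: the CHR, written TTTGAA with the variant TTTAAA and bound by MuvB complexes, the CCAAT box bound by NF-Y, and the E2F motif, written TTTCCCGC, TTTCGCGC, TTTGCCGC or TTTGGCGC. Each was searched on both strands, so TTCAAA also counts as a CHR, ATTGG as a CCAAT box, and the mirrored E2F letters as an E2F motif.
Top2a (chr11:99024190-99024309, minus strand): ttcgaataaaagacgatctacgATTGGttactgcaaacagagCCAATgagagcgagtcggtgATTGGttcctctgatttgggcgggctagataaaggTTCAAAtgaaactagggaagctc
Ccnb1 (chr13:100786487-100786606, minus strand): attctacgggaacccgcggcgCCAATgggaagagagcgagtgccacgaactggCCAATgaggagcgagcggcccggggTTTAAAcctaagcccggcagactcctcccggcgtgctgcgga
Cdk1 (chr10:69352913-69353032, minus strand): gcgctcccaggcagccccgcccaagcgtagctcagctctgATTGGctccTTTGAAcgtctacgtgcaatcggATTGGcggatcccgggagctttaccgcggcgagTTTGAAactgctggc
Ube2c (chr2:164769809-164769928, plus strand): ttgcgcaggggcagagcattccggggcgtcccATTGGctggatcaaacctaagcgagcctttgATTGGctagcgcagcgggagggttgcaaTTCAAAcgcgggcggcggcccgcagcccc
Mki67 (chr7:135716380-135716499, minus strand): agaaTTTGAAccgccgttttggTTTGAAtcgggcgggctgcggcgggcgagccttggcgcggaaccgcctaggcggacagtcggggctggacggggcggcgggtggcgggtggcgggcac
Mcm6 (chr1:128359706-128359825, minus strand): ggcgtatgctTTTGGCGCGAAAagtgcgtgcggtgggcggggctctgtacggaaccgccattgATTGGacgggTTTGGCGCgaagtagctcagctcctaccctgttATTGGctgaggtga
Top2a carries 3 CCAAT boxes and 1 CHR in this stretch, Ccnb1 2 and 1, Cdk1 2 and 2, Ube2c 2 and 1, and Mki67 has 2 CHR motifs and no CCAAT box. Mcm6, a subunit of the replicative helicase, carries no CHR but 3 E2F matches, of which a pair on opposite strands overlap, and 2 CCAAT boxes. Over windows of 300 bases, from 250 before to 50 after the start, 7 of the 8 genes that chose the wells were in the table, and all 7 held a CHR, 6 a CCAAT box and 1 an E2F motif. Of all 27025 genes in that table, 30.6% held a CHR, 41.1% a CCAAT box and 2.61% an E2F motif. The 5 lists of mitotic genes (kinases, cyclins with the anaphase-promoting complex, kinesins, kinetochore, spindle) had 59 of their 69 genes in the table, and 62.7% of the 59 held a CHR and 6.78% an E2F motif. The list of replication genes had 25 of its 30 genes there, and 20% held a CHR and 52% an E2F motif. A match describes letters and is not a shown binding site.

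The cycling wells held 454094 UMIs in Bud, 587353 in het and 613808 in WT, against 3628771, 3673553 and 3319389 UMIs in the other wells of the same libraries. A cycling well had a median of 24539 UMIs in Bud, 14955 in het and 21079 in WT, and another well 13779, 13544 and 14479. Values below are CPM, a gene's UMIs summed over a set of wells and scaled to 1000000 UMIs in all, with exact Poisson 95% intervals in brackets. Ratios have exact binomial 95% intervals, and all intervals cover counting error only. A gene is called higher or lower when the ratio is at least 1.5 in that direction and its interval leaves out 1, and log2 ratios have 10 CPM added to each level first, which understates differences of low genes. The 3 libraries were separate plates, and a well number is only a plate position, so equal numbers do not mean the same cell. Of the 79 positions that held a cycling well, 3 did so in more than 1 library, which says nothing about shared cells. Stk11 itself was at 17.6 CPM in Bud cycling wells, 11.9 in het and 27.7 in WT, from 8, 7 and 17 UMIs, and at 10.7, 14.4 and 19.3 CPM in the other wells. The labels do not say which part of Stk11 was edited, and a tag near the 3′ end need not report it.

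Scores in the cycling wells had a median of 0.409% in Bud, 0.459% in het and 0.400% in WT, with highest values of 0.647%, 0.742% and 0.645%. In the other wells the medians were 0.0285%, 0.0215% and 0.0320%. The rule cuts a continuous range, not a gap: 5 Bud, 10 het and 5 WT wells lay above the cut by at most 0.05 percentage points, and 11, 7 and 9 lay below it by as little. The lowest wells taken scored 0.307% in Bud, 0.302% in het and 0.303% in WT, and the highest wells left out 0.2997%, 0.297% and 0.298%. A cut of 0.5% would leave only 2 Bud, 11 het and 3 WT wells.

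**Figure D1:**
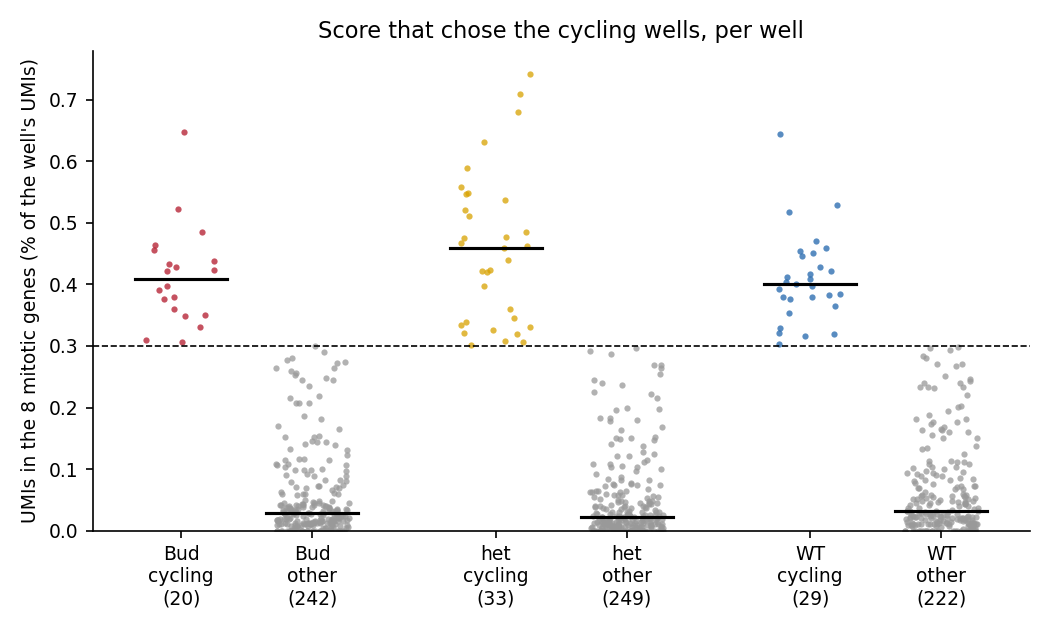
Score of each kept well (percent of its UMIs in the 8 genes of the rule) in cycling (coloured) and other (grey) wells of Bud, het and WT, with the number of wells in parentheses. Bars are medians and the dashed line is the cut of 0.3%; wells fill the range on both sides of it, and the highest score, 0.742%, was in het.

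The 4 markers Mki67, Top2a, Ube2c and Cenpf, which define dividing cells, were abundant in the cycling wells of every library, which the rule itself demanded. Top2a stood at 949 CPM (862 to 1043) in Bud, 984 (905 to 1068) in het and 1002 (924 to 1084) in WT cycling wells, against 146, 114 and 211 CPM in the other wells. All 82 cycling wells had a Top2a UMI, and single wells ranged over 595 to 1528 CPM in Bud, 311 to 2473 in het and 628 to 1502 in WT. Ube2c stood at 954, 1027 and 1035 CPM against 119, 89.3 and 132 CPM in the other wells. Cenpf stood at 218, 264 and 236 CPM against 24.8, 24.5 and 21.7 CPM. Mki67 stood at 744 CPM in Bud, 1037 in het and 538 in WT cycling wells, against 131, 142 and 135 CPM in the other wells. So the other wells were not free of these transcripts: Mki67 was seen in 102 of 242 other wells in Bud, 118 of 249 in het and 104 of 222 in WT. The other 4 genes of the rule, Ccnb1, Cdk1, Birc5 and Tpx2, lay between 215 CPM (Tpx2 in WT) and 489 CPM (Cdk1 in WT) in cycling wells and between 24.0 CPM (Ccnb1 in het) and 116 CPM (Cdk1 in WT) in the other wells.

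Genes of mitosis that the rule did not name were also far higher in the cycling wells of each library. Because the wells were chosen on genes of the same cells, every difference between cycling and other wells is a description with nothing tested. For scale, 5.15% of 10575 measured genes in Bud, 7.26% of 10761 in het and 5.50% of 10646 in WT were called higher, and 4.95%, 7.71% and 5.21% were called lower. All 10 mitotic kinases were called higher in each library, with median log2 ratios of 1.91 in Bud, 2.26 in het and 1.74 in WT. Plk1, which matures the spindle poles and opens anaphase, stood at 282, 286 and 272 CPM in cycling wells against 43.3, 35.1 and 47.3 CPM in the other wells. Aurka, the spindle-pole kinase that TPX2 activates, stood at 115, 167 and 134 CPM against 16.0, 12.2 and 17.5 CPM. Bub1, a kinase of the spindle checkpoint, stood at 106, 104 and 70.1 CPM against 19.0, 13.9 and 20.5 CPM.

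Cyclins and the machinery that destroys them had 13 of 14 measured members called higher in each library and none lower. Ccna2, the cyclin of S and G2 phase, stood at 418 CPM in Bud, 512 in het and 529 in WT cycling wells against 102, 60.4 and 107 CPM in the other wells. Ccnb2, the second B-type cyclin, was the least separated of those named here, at 273, 240 and 187 CPM against 93.4, 53.6 and 80.1 CPM. Cdc20, which activates the anaphase-promoting complex, stood at 112, 129 and 116 CPM against 24.3, 11.4 and 13.6 CPM. Espl1, which encodes separase, the protease that cuts cohesin at anaphase, stood at 156, 78.3 and 150 CPM against 20.9, 7.62 and 22.6 CPM.

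Kinesins, the motors of mitosis, were called higher for 12 of 13 members in Bud and for all 13 in het and in WT, and the spindle list for 16, 16 and 15 of 16. Nusap1, which binds spindle microtubules, stood at 170, 203 and 199 CPM in cycling wells against 13.2, 9.80 and 22.6 CPM in the other wells, ratios of 12.8 (8.83 to 18.8), 20.7 (14.1 to 30.9) and 8.80 (6.54 to 11.9). Prc1, which bundles the midzone of the spindle, stood at 286, 266 and 310 CPM against 32.8, 15.0 and 36.8 CPM. Aspm, a spindle-pole protein, stood at 81.5, 74.9 and 88.0 CPM against 9.65, 6.81 and 8.13 CPM. None of these 3 genes was called between libraries in cycling wells, while in the other wells Nusap1 and Prc1 were called lower in het than in WT. Kif11, the kinesin that pushes the poles apart, stood at 326, 318 and 274 CPM against 46.8, 35.9 and 50.9 CPM. The kinesin Kif23 of the midbody stood at 242, 250 and 217 CPM against 42.7, 43.3 and 43.7 CPM. Cenpe, the kinesin that walks chromosomes to the spindle equator, stood at 203, 191 and 156 CPM against 30.0, 26.4 and 32.2 CPM.

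Centromere and kinetochore genes were called higher for 13, 16 and 14 of 16 members, with median log2 ratios of 1.52 in Bud, 1.78 in het and 1.24 in WT. Cenpa, the histone variant that marks centromeres, stood at 293, 291 and 327 CPM in cycling wells against 76.1, 43.3 and 55.4 CPM in the other wells. Ndc80, which ties microtubules to kinetochores, stood at 74.9, 76.6 and 65.2 CPM against 11.3, 11.2 and 14.5 CPM. Chromatin genes were called higher for 13, 13 and 12 of 14 members with smaller medians, 1.12, 1.51 and 0.94. Hmgb2, a chromatin protein abundant in dividing cells, stood at 870, 666 and 823 CPM against 316, 127 and 287 CPM, so its other-well level in het was under those of Bud and WT. H2afx, the histone variant that is phosphorylated at DNA breaks, stood at 264, 184 and 218 CPM against 42.7, 26.7 and 44.6 CPM.

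**Figure D2:**
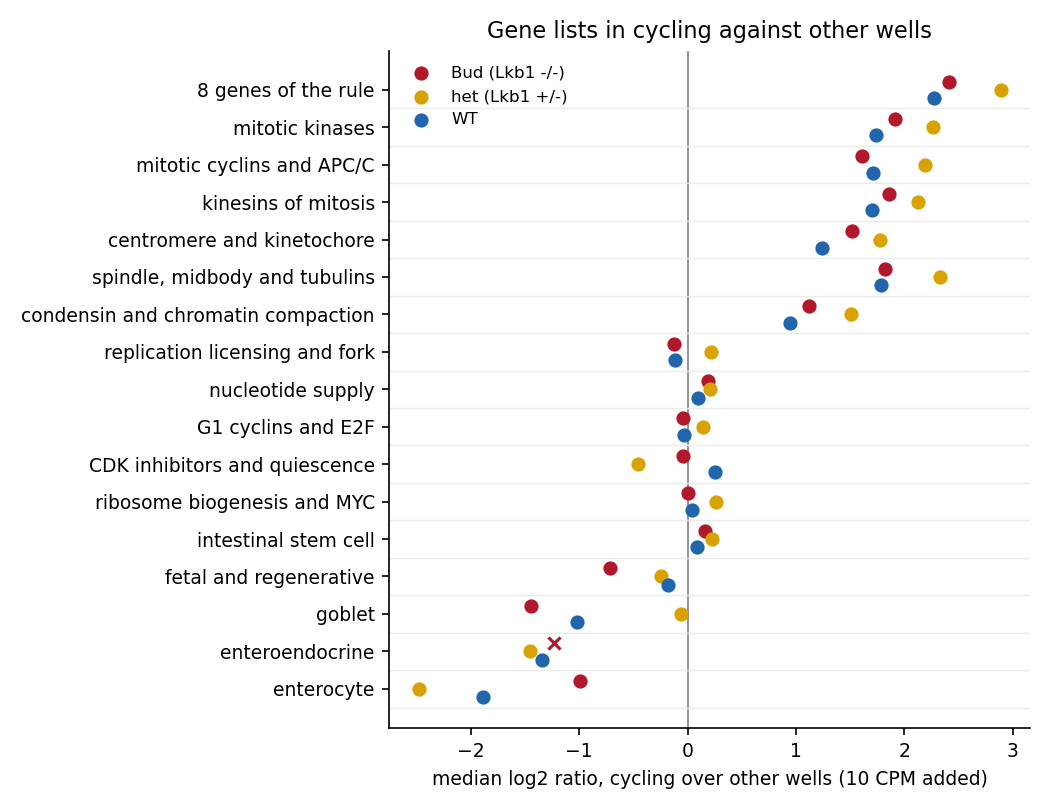
Median log2 ratio of cycling over other wells for 17 gene lists (rows) in Bud, het and WT (colours); a cross marks a list with under 3 measured genes. The 6 lists of mitosis and chromatin lie between 0.94 and 2.33, replication genes between -0.12 and 0.22, and enterocyte genes between -2.48 and -0.99.

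Genes of DNA replication were called in both directions between cycling and other wells. Of 30 measured members, 1 was called higher and 5 lower in Bud, 9 higher and 3 lower in het, and 1 higher and 5 lower in WT, with median log2 ratios of -0.12, 0.22 and -0.12. Among those higher in het, Rfc5, a subunit of the clamp loader, stood at 66.1, 95.3 and 71.7 CPM in Bud, het and WT cycling wells against 44.4, 32.1 and 56.6 CPM in the other wells. Cdc45, a helicase cofactor, stood at 24.2, 40.9 and 39.1 CPM against 31.1, 17.1 and 35.2 CPM, and was also called higher in het. Gins2, of the same helicase, was the member called higher in Bud, at 72.7, 27.2 and 45.6 CPM against 30.9, 37.8 and 54.5 CPM. Mcm6 stood at 222 CPM (181 to 270) in Bud, 186 (152 to 224) in het and 155 (125 to 189) in WT cycling wells, against 282, 301 and 287 CPM in the other wells, and was called lower in het and in WT. Cdc6, which loads the helicase, stood at 13.2, 20.4 and 17.9 CPM against 32.8, 28.3 and 53.6 CPM, and was called lower in Bud and in WT, where 1 cycling well held 54.5% of its 11 UMIs. Uhrf1, which passes DNA methylation on to new strands, was called lower in all 3 libraries, at 52.9, 37.5 and 44.0 CPM against 89.0, 63.2 and 93.7 CPM. Its log2 ratio turned to 0.17 in Bud and 0.046 in het when the cut was 0.2%.

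Of the 10 genes of nucleotide supply, 2 were called higher and none lower in Bud, 2 and none in het, and 1 and 1 in WT. Tk1, which encodes the thymidine kinase, was called higher in each library, at 271, 211 and 235 CPM in cycling wells against 122, 93.9 and 139 CPM in the other wells. Rrm2, the regulated subunit of ribonucleotide reductase, was called higher in Bud, at 189 CPM against 120 CPM, with 73.2 against 66.4 CPM in het and 179 against 146 CPM in WT. Outside that list, Ung, the glycosylase that removes uracil from DNA, was nearly absent from cycling wells: 4, 2 and 2 UMIs in Bud, het and WT against 49.1, 51.7 and 77.4 CPM in the other wells, with ratios of 0.18 (0.0484 to 0.468), 0.0658 (0.00792 to 0.241) and 0.0421 (0.00507 to 0.154). Hist1h2bc, a gene of histone H2B, stood at 24.2, 15.3 and 6.52 CPM against 104, 83.0 and 66.3 CPM. Both Ung and Hist1h2bc were called lower in every library.

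Along the score the replication genes had a hump. In wells with a score under 0.02% they held 0.245% of UMIs in Bud, 0.145% in het and 0.198% in WT. The share was highest in the wells just under the cut or 1 bin lower: 0.488% in Bud and 0.533% in het at scores of 0.2% to 0.3% (20 and 13 wells), and 0.635% in WT at 0.1% to 0.2% (29 wells). In the cycling wells it was 0.333%, 0.329% and 0.354% at scores under 0.45%, and 0.255%, 0.236% and 0.242% from there up, the last bin holding 5, 17 and 7 wells. The mitotic kinases instead kept climbing to the top bin, where they held 0.171% of UMIs in Bud, 0.169% in het and 0.153% in WT. Bins share libraries and the score counts toward the same total, so the curves are descriptions. Wells with at least 0.5% of UMIs in replication genes made up 2 of 20 cycling wells (10.0%) and 47 of 242 other wells (19.4%) in Bud, 7 of 33 (21.2%) and 49 of 249 (19.7%) in het, and 3 of 29 (10.3%) and 72 of 222 (32.4%) in WT. The share was similar in both sets in het and lower in cycling wells in Bud and WT, with exact intervals that overlapped in all 3 libraries. Wells rich in replication transcripts also occurred among the other wells, so "cycling" is used here for the rule's wells and not for every dividing cell.

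**Figure D3:**
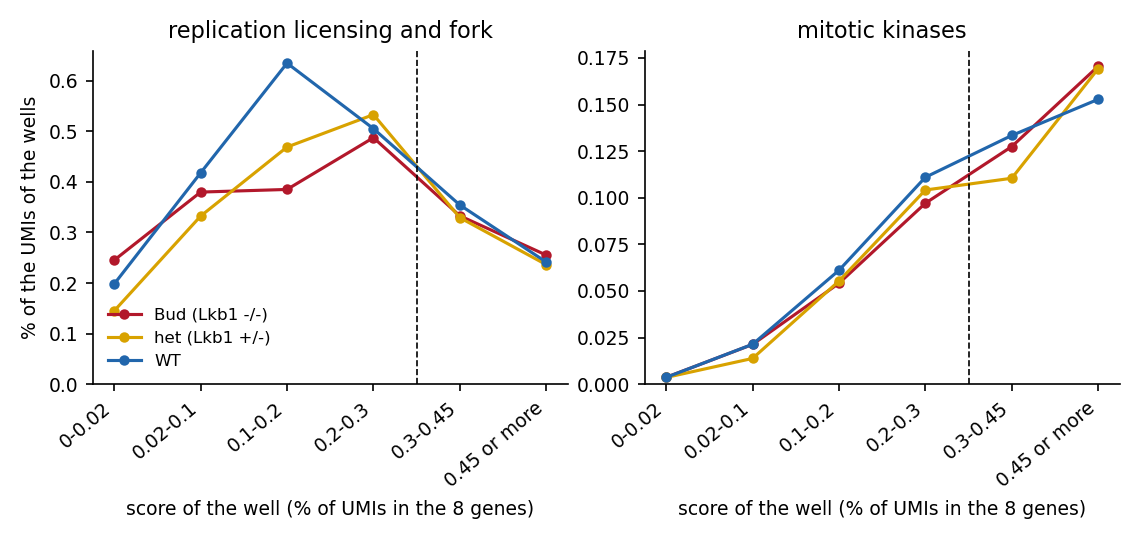
Percent of UMIs held by replication genes (left) and mitotic kinases (right) in wells grouped by score, for Bud, het and WT; the dashed line is the cut of 0.3%. Replication genes peak under the cut, at 0.488%, 0.533% and 0.635%, and mitotic kinases are highest in the last bin.

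Regulators of the G1 phase were mixed. Ccnd2, a D-type cyclin that answers growth signals, stood at 641, 625 and 666 CPM in cycling wells against 909, 764 and 713 CPM in the other wells, and was not called in any library. E2f1, an activator of S phase genes, was called lower in het and in WT, at 17.6, 6.81 and 21.2 CPM against 28.9, 24.2 and 40.4 CPM. E2f8, which represses E2F targets after S phase, was called higher in all 3, at 70.5, 54.5 and 79.8 CPM against 30.9, 24.8 and 36.8 CPM. Inhibitors of the cyclin-dependent kinases went in both directions. Cdkn1a, encoding p21, was called lower in each library, at 52.9 CPM (33.9 to 78.6), 80.0 (58.8 to 106) and 99.4 (76.0 to 128) in cycling wells against 164, 169 and 197 CPM. Cdkn1b, encoding p27, was called higher in each, at 196, 175 and 160 CPM against 94.5, 112 and 96.4 CPM. Cdkn2c, encoding p18, was also called higher in each, at 22.02, 37.5 and 37.5 CPM against 9.37, 7.35 and 16.0 CPM.

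Stem cell transcripts were present at similar levels in cycling and other wells. Of 15 list members, 3 were called higher and 1 lower in Bud, 1 and 0 in het, and 2 and 0 in WT. Lgr5, the R-spondin receptor that marks crypt base stem cells, stood at 379 CPM in Bud, 361 in het and 256 in WT cycling wells against 300, 289 and 283 CPM, and was not called. It was seen in 19 of 20, 27 of 33 and 27 of 29 cycling wells. Ascl2, a stem cell transcription factor under WNT, was called higher in Bud and in WT, at 229, 175 and 243 CPM against 142, 139 and 143 CPM. Smoc2, another crypt base marker, was called higher in Bud, at 476, 392 and 318 CPM against 304, 278 and 315 CPM.

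Transcripts of mature cells were low in cycling wells in the summed counts. Enterocyte genes were called lower for 9 of 15 measured members in Bud, all 17 in het and 14 of 17 in WT. Median wells lay closer together. The enterocyte share of the median cycling well was 0.0891% against 0.107% in other wells in Bud. It was 0.136% against 0.178% in het, and 0.122% against 0.143% in WT. The highest other wells reached 3.75%, 8.62% and 6.73% in Bud, het and WT. Sis, the brush border enzyme that splits sucrose, stood at 4.40, 35.8 and 61.9 CPM in cycling wells against 142, 1090 and 401 CPM in the other wells, and 1 WT cycling well held 60.5% of that library's 38 UMIs. Fabp1, a fatty acid carrier, stood at 0, 23.8 and 35.8 CPM against 1.38, 914 and 729 CPM, so Bud had almost none in either set, and 1 WT cycling well held 45.5% of 22 UMIs. Krt20, a keratin of mature epithelium, had 0, 1 and 0 UMIs in cycling wells against 21.5, 86.6 and 37.1 CPM, at least 3.25-fold lower in Bud and at least 7.58-fold lower in WT, with a ratio of 0.0197 (0.000496 to 0.11) in het. No cycling well gave the enterocyte list 1% of its UMIs, while 4 Bud, 40 het and 24 WT other wells did. A count of 0 in 20, 33 and 29 wells allows shares of up to 15.0%, 9.09% and 10.3%.

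Secretory genes were low as well in the summed counts, with an exception in het described further on. For goblet genes the median cycling well lay under the median other well only in WT. Its goblet share was 0.0425% in cycling against 0.0383% in other wells in Bud, 0.0401% against 0.0320% in het, and 0.0246% against 0.0283% in WT. Neurog3, the switch of the enteroendocrine lineage, had 1, 2 and 1 UMIs in Bud, het and WT cycling wells against 119, 112 and 80.7 CPM in the other wells, ratios of 0.0185 (0.000467 to 0.104), 0.0304 (0.00366 to 0.11) and 0.0202 (0.000509 to 0.113). Muc2, the gel-forming mucin of goblet cells, stood at 8.81, 52.8 and 3.26 CPM against 131, 200 and 81.9 CPM. Single other wells held much of the Muc2 signal, 84.1% of it in Bud and 80.5% in WT. Goblet genes were called lower for 7 of 13 measured members in Bud and 8 of 12 in WT, but for 2 of 13 in het, where 1 was higher. Enteroendocrine genes were called lower for 1 of 2 measured members in Bud, 6 of 8 in het and 5 of 7 in WT, and tuft genes for 0 of 1, 5 of 7 and 2 of 3, with none higher in either list. Paneth genes were mixed, with 1 higher and 2 lower of 6 in Bud, 0 and 3 of 6 in het, and 1 and 1 of 5 in WT, and secretory progenitor genes had 0 higher and 1 lower of 8, 2 and 1 of 8, and 0 and 3 of 8. The fetal and regenerative list, of genes active before birth and in repair, had 0 higher and 8 lower of 14 in Bud, 1 and 3 of 14 in het, and 0 and 1 of 11 in WT. Genes of ribosome assembly had none of 15 called in any library. Mesenchymal, immune and endothelial lists held 0 to 3 UMIs in the cycling wells of each library, so markers of these other cell types were at or near 0. Of the list of LKB1, its partners and its target kinases, 2 of 16 measured members were called higher and 1 lower in Bud, 1 and 1 of 15 in het, and 0 and 2 of 16 in WT. Prkab1, the beta 1 subunit of AMPK, was called lower in all 3, at 39.6, 35.8 and 37.5 CPM against 64.5, 59.9 and 58.4 CPM.

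The second question was whether cycling cells differed between the genotypes. They made up 20 of 262 kept wells in Bud, 7.63% (exact interval 4.72% to 11.5%), 33 of 282 in het, 11.7% (8.19% to 16.0%), and 29 of 251 in WT, 11.6% (7.88% to 16.2%). Bud was lowest, but its interval overlapped those of het and WT. With every well thinned to 3000 UMIs before scoring, the counts were 24, 36 and 34 wells, or 9.16%, 12.8% and 13.5%. Only 18, 28 and 24 of these wells were also cycling wells without thinning, so membership changed more than the totals. The number of UMIs per cycling well differed as well, with the medians given above, and its part in these shares was not tested.

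Within cycling wells, 3.20% of 8588 measured genes were called higher and 6.14% lower in Bud against WT, 4.64% and 6.46% of 8849 in het against WT, and 5.15% and 6.86% of 8555 in Bud against het. Genes of mitosis kept near or under these shares. Over the 5 lists of mitosis with 69 genes, 1 gene was called higher and 3 lower in Bud against WT, and 2 higher and 2 lower in het against WT. Their list medians lay between -0.10 and 0.21 on the log2 scale for Bud against WT, and between -0.01 and 0.12 for het against WT. Plk1 stood at 282, 286 and 272 CPM, and its ratios to WT were 1.04 (0.816 to 1.31) in Bud and 1.05 (0.844 to 1.31) in het. Since the score had to reach the same cut in each library, equal totals of such genes are partly set by the rule. Nek2, a centrosome kinase, was called lower in Bud, at 83.7 CPM against 127 CPM in WT, a ratio of 0.659 (0.435 to 0.982), with 90.2 CPM in het and 28.9% of the Bud UMIs in 1 well.

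Mki67 was the exception among the 8 genes that chose the wells. Its level in single cycling wells ran from 0 over a median of 780 to 1849 CPM in Bud, from 427 over 995 to 1964 CPM in het, and from 144 over 470 to 1065 CPM in WT. The median het well was thus close to the highest WT well, though the ranges overlapped. Summed over wells the ratio to WT was 1.93 (1.68 to 2.21) in het, called higher, and 1.38 (1.19 to 1.62) in Bud, not called. In the other wells, Mki67 stood at 131, 142 and 135 CPM in Bud, het and WT, ratios to WT of 0.966 (0.847 to 1.10) and 1.05 (0.921 to 1.19). The other 7 genes of the rule were not called between any pair of libraries in cycling wells. These 8 genes chose the wells, so their levels are given as a description.

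Espl1 went the other way, at 156 CPM (122 to 197) in Bud, 78.3 (57.3 to 104) in het and 150 (121 to 184) in WT cycling wells. The ratio to WT was 0.523 (0.359 to 0.752) in het and 1.04 (0.754 to 1.44) in Bud, and in the other wells it was 0.337 (0.210 to 0.527) and 0.927 (0.665 to 1.29). Among genes of S phase, Rrm2, Pcna and Gmnn were called lower in het. Rrm2 stood at 189 CPM (151 to 234) in Bud, 73.2 (52.98 to 98.6) in het and 179 (147 to 216) in WT cycling wells, with ratios to WT of 1.06 (0.788 to 1.41) in Bud and 0.409 (0.280 to 0.586) in het; 1 well held 25.6% of its UMIs in Bud and 1 held as much in het. Pcna, the sliding clamp of the replication fork, stood at 736 CPM in Bud, 439 in het and 740 in WT, and the ratio of het to WT was 0.594 (0.508 to 0.693). Gmnn, encoding geminin, which blocks a second round of licensing, stood at 85.9, 63.0 and 109 CPM, and the ratio of het to WT was 0.577 (0.375 to 0.875). These were 2 of the 30 replication genes and 1 of the 10 nucleotide genes, none of which was called higher in het against WT. A share of 2 in 30 is near the 6.46% of all genes called lower, and the replication list's median was -0.11. Bud was under WT for 1 of the 30, Cdt1, the licensing factor that geminin holds, at 83.7 CPM against 145 CPM in WT, a ratio of 0.577 (0.384 to 0.853), with 119 CPM in het and 31.6% of the Bud UMIs in 1 well.

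The other wells of het lay lower on most of these lists. Among them 8.48% of 11382 measured genes were called higher and 9.25% lower in het against WT, and 5.95% and 8.91% of 11332 in Bud against WT. Replication genes were called lower in het for 13 of 30 members, with a median log2 ratio of -0.50 in the other wells against -0.11 in the cycling wells. The kinases were called lower for 5 of 10, the kinetochore list for 7 of 16, the spindle list for 7 of 16 and the chromatin list for 8 of 14, with none higher, and with medians of -0.41, -0.30, -0.48 and -0.52. In the same wells of Bud against WT the replication list had 2 of 30 lower and a median of -0.20. The enterocyte list, at 0.919% of UMIs in het other wells and 0.504% in WT other wells, moved with this difference, and its part in it was not tested.

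**Figure D4:**
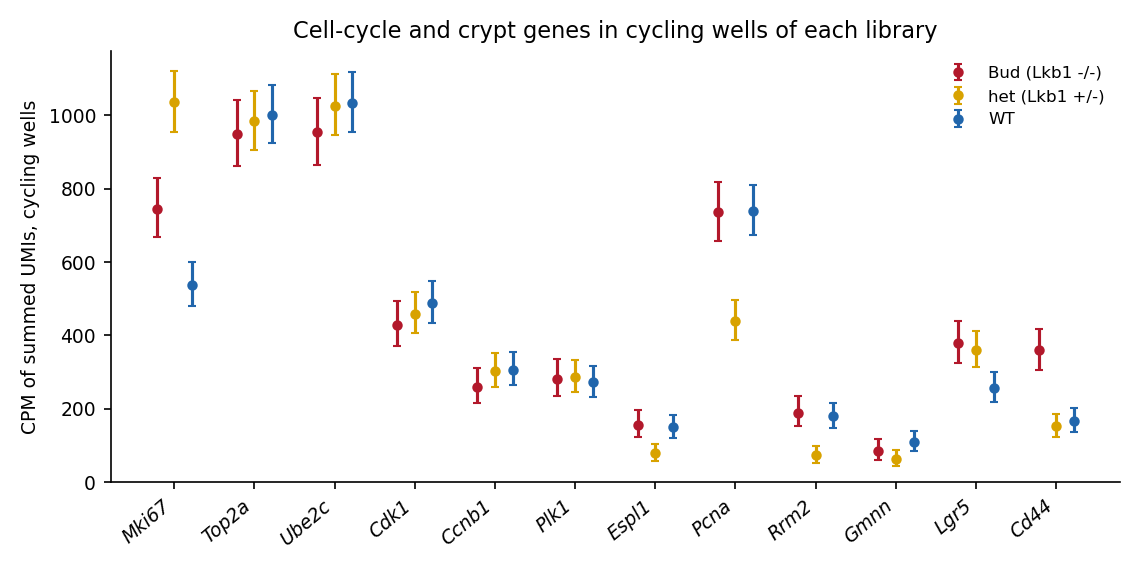
CPM of summed UMIs in cycling wells of Bud, het and WT for 12 cell-cycle and crypt genes, with exact Poisson 95% intervals as bars (counting error only). Mki67 is highest in het at 1037 CPM, Rrm2 and Pcna are lowest in het at 73.2 and 439 CPM, and Cd44 is highest in Bud at 359 CPM.

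Crypt genes differed in Bud for Cd44, a surface receptor for hyaluronan and WNT target. It stood at 359 CPM (306 to 418) in Bud, 152 (122 to 186) in het and 166 (135 to 202) in WT cycling wells, and at 350, 132 and 152 CPM in the other wells. The ratio of Bud to WT was 2.16 (1.68 to 2.79) in cycling wells and 2.30 (2.07 to 2.55) in the other wells. Lgr5 had ratios to WT of 1.48 (1.19 to 1.85) in Bud and 1.41 (1.14 to 1.75) in het in cycling wells and was not called.

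Several of the largest differences of Bud cycling wells from WT were also present in the other wells. Pla2g2a, a secreted phospholipase of Paneth cells, stood at 189 CPM (151 to 234) in Bud with UMIs in 16 of 20 wells, at 1.70 CPM from 1 UMI in het, and had no UMI in WT, so it was at least 38.7-fold higher in Bud than in WT. In the other wells it stood at 235, 14.4 and 3.62 CPM. Ggh, encoding gamma-glutamyl hydrolase of folate metabolism, stood at 183, 20.4 and 16.3 CPM in cycling wells, a ratio of Bud to WT of 11.2 (5.81 to 24.3), and at 161, 24.0 and 13.6 CPM in the other wells. Erdr1 stood at 286 and 232 CPM in Bud and het cycling wells and at 6.52 CPM in WT, ratios to WT of 43.9 (16.8 to 164) and 35.5 (13.6 to 132), and at 245, 150 and 3.92 CPM in the other wells. In the opposite direction, Ifitm3, an interferon-induced membrane protein, had no UMI in Bud or het cycling wells and stood at 220 CPM in WT, at least 33.3-fold and at least 43.1-fold lower, and it stood at 0.827, 0.817 and 245 CPM in the other wells. Clic6, a chloride channel family member, had no UMI in Bud in either set of wells, and stood at 216 CPM in het and 116 CPM in WT cycling wells, so it was at least 17.5-fold lower in Bud than in WT. Fam111a, a protease that acts at replication forks, had 1 UMI in Bud cycling wells against 117 CPM in WT, a ratio of 0.0188 (0.000469 to 0.108), with 73.2 CPM in het, and stood at 0.551, 84.7 and 156 CPM in the other wells. Igf2bp3, an RNA-binding protein, had 0 and 1 UMIs in Bud and het and 53.8 CPM in WT cycling wells, and stood at 1.65, 0 and 69.6 CPM in the other wells. The genes Fos and Mttp, described below, were further from WT in cycling wells than in other wells, a gap that was not tested.

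Genes of the fetal and regenerative list were called higher in Bud against WT for 4 of 7 measured members in cycling wells, and for 10 of 14 in the other wells, with none lower in either. Its medians were 0.63 and 0.61. Anxa1, a phospholipid-binding annexin, stood at 72.7 CPM (50.0 to 102) in Bud, 10.2 in het and 6.52 in WT cycling wells, a ratio of Bud to WT of 11.2 (3.97 to 43.3), and at 121, 11.7 and 8.74 CPM in the other wells. S100a6, a calcium-binding protein, stood at 255, 80.0 and 83.1 CPM, a ratio of Bud to WT of 3.07 (2.19 to 4.36), and at 395, 146 and 102 CPM in the other wells. Both were called lower in Bud cycling wells than in Bud other wells, with ratios of 0.601 (0.408 to 0.856) for Anxa1 and 0.646 (0.530 to 0.781) for S100a6. Enterocyte genes were called lower in Bud cycling wells against WT for 6 of 9 measured members, and in the other wells for 14 of 17, with none higher in either. The list's medians were -1.31 in cycling wells and -1.80 in the other wells. Mttp, which loads lipid onto lipoproteins, stood at 6.61 CPM from 3 UMIs in Bud, 100 CPM in het and 99.4 CPM in WT, and the ratio of Bud to WT was 0.0665 (0.0133 to 0.204) in cycling wells and 0.255 (0.217 to 0.298) in the other wells. Dmbt1, a secreted scavenger receptor of the gut lining, stood at 26.4 CPM in Bud, 751 in het and 215 in WT, a ratio of Bud to WT of 0.123 (0.0619 to 0.222).

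**Figure D5:**
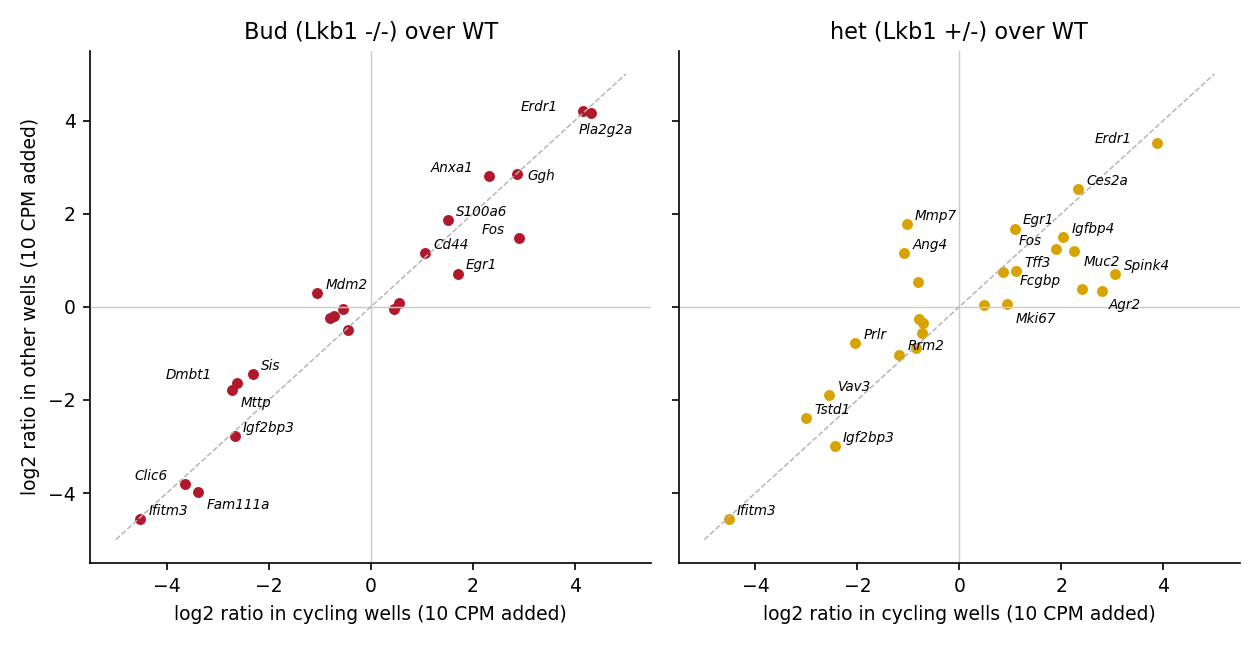
Log2 ratio to WT of the genes named for Bud (left) and het (right), in cycling wells (x axis) against other wells (y axis); the dashed line marks equal ratios and genes under 0.9 in cycling wells are not labelled. In Bud most points lie along the line, with Fos to its right (2.90 and 1.48), and in het Mki67 (0.93 and 0.06) and goblet genes such as Agr2 (2.80 and 0.35) lie to its right.

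Among the genes of het cycling wells furthest from WT, Igfbp4, which binds insulin-like growth factors, stood at 90.3 CPM in Bud, 386 (338 to 440) in het and 86.3 (64.7 to 113) in WT, a ratio of het to WT of 4.48 (3.31 to 6.16). It was seen in 31 of 33 het wells, and stood at 86.5, 329 and 110 CPM in the other wells of Bud, het and WT. Ces2a, a carboxylesterase, stood at 26.4, 172 and 26.1 CPM, a ratio of het to WT of 6.60 (3.87 to 11.98), though 1 het well held 33.7% of its UMIs, and at 38.0, 563 and 89.2 CPM in the other wells. Lower in het were Tstd1, with 3 UMIs against 111 CPM in WT (ratio 0.0461, 0.00928 to 0.141), and Vav3, with 2 UMIs against 68.4 CPM (ratio 0.0498, 0.00584 to 0.191). Bud stood at 61.7 CPM for Tstd1 and 52.9 CPM for Vav3, so these 2 genes set het apart from both other libraries. Prlr, the prolactin receptor, was called lower in both, at 30.8, 35.8 and 179 CPM, with ratios to WT of 0.172 (0.0911 to 0.301) in Bud and 0.1995 (0.119 to 0.320) in het.

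Goblet genes were called higher in het against WT cycling wells for 7 of 10 measured members. Of the 33 het wells, 2 held 74.4% of the goblet list's UMIs. One had 36118 UMIs in all, of which 609 were goblet genes (1.69%), with 238 UMIs of Tff3, the trefoil peptide that accompanies mucin, 190 of Fcgbp, a mucus protein, 143 of Agr2, a folding enzyme for mucins, and 19 of Dll1, a Notch ligand of secretory precursors. It also had 16 UMIs of Mki67, 29 of Top2a and 13 of Ccnb1, and a score of 0.421%. The other had 10679 UMIs with 380 of goblet genes (3.56%), among them 144 of Tff3, 106 of Spink4 and 17 of Muc2, beside 15 UMIs of Mki67 and 14 of Top2a and a score of 0.459%. No Bud or WT cycling well reached 1% in goblet genes, against 27 Bud, 20 het and 12 WT other wells. A count of 0 in 20 Bud and in 29 WT wells allows shares of up to 15.0% and 10.3%, and 2 of 33 in het is 6.06% (0.743% to 20.2%), so the libraries do not differ detectably here. No doublet caller was run, and whether a well held 2 cells was not tested. The 2 het wells were picked for their goblet UMIs and only het was trimmed, so a fall in het was fixed in advance. In Bud and WT the richest cycling well, which was kept, held 35.1% and 27.1% of the goblet UMIs. Without the 2 het wells the goblet list stood at 631 CPM in het, against 628 in Bud and 727 in WT with all wells. Its ratio of het to WT was 0.868 (0.752 to 1.00) in place of 3.12, which describes those 2 wells and does not compare the libraries. Of the measured members, 3 were then called higher and 2 lower, in place of 7 and 1. Tff3 then had a ratio of 0.628 (0.505 to 0.777) in place of 2.20, Fcgbp 0.935 (0.606 to 1.43) in place of 5.84, Spink4 1.86 (0.831 to 4.35) in place of 12.4, and Agr2 1.70 (1.01 to 2.91) in place of 8.401. Muc2 was still called higher, at 7.95 (1.83 to 72.1) in place of 16.2, over 2 UMIs in WT. So was Creb3l1, named here after its values were seen, at 1.84 (1.04 to 3.33) in place of 3.73.

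The early response genes Fos and Egr1 were called higher in the cycling wells of both Lkb1 lines than in those of WT. Fos, a subunit of AP-1 and a CREB target, stood at 236 CPM (193 to 285) in Bud, 112 (86.9 to 143) in het and 22.8 (12.5 to 38.3) in WT, ratios to WT of 10.3 (5.90 to 19.5) and 4.93 (2.74 to 9.50). In the other wells it stood at 158, 131 and 50.0 CPM. Egr1, another early response factor, stood at 96.9, 59.6 and 22.8 CPM in cycling wells, ratios to WT of 4.25 (2.28 to 8.39) and 2.61 (1.37 to 5.26), and 50.4, 108 and 26.8 CPM in the other wells. Of the list of genes induced by dissociation, which holds both, 3 of 9 measured members were called higher and none lower in Bud against WT, and 3 of 10 higher and 1 lower in het against WT. In the other wells the same list had 6 of 11 higher and none lower in Bud against WT, and 8 of 12 higher and 1 lower in het against WT. It held 0.1997% of UMIs in Bud cycling wells, 0.145% in het and 0.159% in WT, and its part in the Fos difference was not tested. Of the CREB list in cycling wells, 1 of 3 measured members was called in Bud against WT and 1 of 5 in het against WT. Each time it was Fos. In the other wells this list had 5 of 11 higher and 1 lower in Bud against WT, and 4 of 11 higher and none lower in het against WT. Among all genes measured there, 5.95% and 8.48% were called higher. The list, Fos included, held 0.0319% of UMIs in Bud cycling wells, 0.0167% in het and 0.00912% in WT.

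Mdm2 was called lower in the cycling wells of both Lkb1 lines than in those of WT, and Cdkn1a in those of Bud. Mdm2, a p53 target and the ligase that degrades p53, stood at 19.8 CPM (9.06 to 37.6) in Bud, 25.5 (14.3 to 42.1) in het and 52.1 (35.7 to 73.6) in WT, ratios to WT of 0.380 (0.160 to 0.815) and 0.490 (0.247 to 0.931), and at 37.2, 45.5 and 28.3 CPM in the other wells. The Bud value rests on 9 UMIs, 44.4% of them in 1 well. Cdkn1a had a ratio to WT of 0.532 (0.317 to 0.866) in Bud, called lower, and 0.805 (0.538 to 1.20) in het. Of the 9 measured members of the p53 list, 1 was called higher and 2 lower in Bud against WT, and 1 higher and 1 lower in het against WT.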

How the data were processed

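Per the labels' protocols, the libraries of sorted cells were made by SORT-seq, which counts transcripts by their 3′ ends in a plate. The deposited UMI tables hold raw counts, whole numbers of genes by wells without normalization, and gave every main value. The deposited transcript tables hold estimated counts: they equal the UMI counts corrected for the 4096 identifier codes, within 4.5e-13, and served as an alternative. Per the submitters' processing notes, the tools were STAR 2.6.1, featureCounts 1.5.2 and Seurat 4.1.0 with build GRCm38. How reads on either strand or with several matches were treated is not stated there, so overlapping and near-identical genes are uncertain. Per-cell quality filters beyond 3000 UMIs and a doublet caller were not applied.

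Spike-ins were dropped, UMIs were summed over wells and scaled to CPM (Python 3.11.15, SciPy 1.17.1). A gene needed 10 UMIs over both sets of wells. A share of 0 is limited by 3 counts of the total, and a fold against 0 uses a floor of 3 UMIs in that set. edgeR 4.0.16 gave TMM factors for an alternative scaling only. Further alternatives were cuts of 0.2% and 0.5%, scores on wells thinned to 3000 UMIs, wells of 6000 UMIs, 50 UMIs a gene, equal weights for wells, 1 CPM added, and leaving out wells rich in Kcnq1ot1. Chosen after seeing the data were other wells under 0.1% as the only comparison wells, thinned cycling wells, and leaving out 2 goblet-rich het wells. The ratio code was tested on simulated counts with counting error only, at the library sizes of the cycling wells. For Bud against WT, het against WT and Bud against het, 2.56%, 3.07% and 2.39% of unchanged genes were called. Of 2-fold changes 63%, 74% and 64% were recovered, and of 4-fold changes 93%, 97% and 92%. Members, lists and named genes were chosen with earlier results of these data known. Named genes were Stk11, the genes of the rule, the 12 genes each way furthest apart in cycling against other wells, the 10 each way per pair of libraries, the 8 each way that set Bud apart, and up to 4 per list and comparison, from which the text takes those it describes. Low lists of immune, mesenchymal and endothelial markers had at most 1 measured gene. The libraries Cys (Lkb1 -/-) and fetal (WT) entered no comparison.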

Additional observations from a re-analysis of the deposited data

Results flagged for a closer look

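Egr1, Mmp7, Ang4 and Mdm2 were called in opposite directions in different settings, and none of these differences was tested. Egr1 was higher in cycling than other wells in Bud, with a log2 ratio of 0.82, and lower in het, at -0.76, and the ratio of Bud to het was 0.62 in cycling wells and -0.97 in other wells. Mmp7, a protease of Paneth cells, had log2 ratios of cycling to other wells of -1.67 in het and 1.15 in WT, and of het to WT of -1.04 in cycling wells and 1.78 in other wells. In WT, 5 of 29 cycling wells held its 30 UMIs, 46.7% of them in 1 well. Ang4, another Paneth cell gene, had log2 ratios of het to WT of -1.08 in cycling wells, where it rests on 1 UMI in het and 9 UMIs of 1 well in WT, and 1.16 in other wells. Mdm2 had log2 ratios of het to WT of -0.81 in cycling wells and 0.53 in other wells.

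The rule also found cycling wells in the libraries that entered no comparison: 17 of 316 kept wells of Cys, the second library of genotype Lkb1 -/-, or 5.38% (3.16% to 8.47%), and 14 of 369 of the fetal intestine library, or 3.79% (2.09% to 6.28%).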

How the results depend on the processing

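No paired analysis was possible because each group is 1 library with no replicate. The shares of cycling wells at a cut of 0.2% were 15.3% in Bud, 16.3% in het and 19.5% in WT, and at 0.5% 0.763%, 3.90% and 1.20%; the other 12 values stayed within the intervals. Genes called numbered 1068, 1611 and 1140 for cycling against other wells in Bud, het and WT. They numbered 802 for Bud against WT, 983 for het against WT and 1028 for Bud against het. At the 0.5% cut the counts were 460 in Bud and 493 in WT, and 154, 360 and 275 between libraries. At 50 UMIs a gene they were 456, 563 and 557, and with cycling wells thinned to 3000 UMIs, an alternative chosen after seeing the data, 168, 228 and 197, where fewer molecules were compared. The share of higher calls, 51.0% in Bud and 51.3% in WT, was 85.2% and 78.3% at the 0.5% cut. It was 26.7% in place of 41.8% for het against WT and 74.9% in place of 42.9% for Bud against het, and 58.4% for the last with thinned wells. The other 51 counts, under TMM, the transcript table, equal weights and the rest, stayed within 1.5 times. Sizes were less stable. Apart from the sign changes below, 250 log2 ratios moved by more than counting error and 2363 did not. List medians moved beyond a fixed limit in 316 cases and stayed in 1247. With other wells under 0.1% as the only comparison wells, 75 log2 ratios moved and 101 stayed, and 31 list medians moved and 41 stayed.

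At the 0.5% cut, which leaves 2 Bud and 3 WT wells, some log2 ratios changed sign. For cycling against other wells these were Cdkn1b -0.010, Smoc2 -1.54, Prkab1 0.69, Egr1 -2.72, Tk1 -0.37 and Uhrf1 0.66 in Bud, and Cdkn1a 0.87 and E2f8 -0.57 in WT. For het against WT they were Rrm2 0.73, Tff3 -2.40 and Fcgbp -2.64. For Bud against het they were Dmbt1 0.17, Fos -0.66 and Egr1 -3.23. The medians of the fetal list turned to -0.085 for Bud against WT and -0.026 for Bud against het, and that of the CREB list to -0.66 for Bud against het. At the 0.2% cut, Uhrf1 was 0.17 in Bud and 0.046 in het and Egr1 for Bud against het -0.045, and with thinned scores the last was -0.20. Without the 2 het wells rich in goblet genes, picked for those UMIs and left out of het alone, Tff3 for het against WT was -0.65 and Fcgbp -0.086. The cause of these changes was not tested. Signs were checked only for the genes picked for the text, and only where a gene still had enough UMIs under the alternative. Among these, no other called log2 ratio changed sign.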
